A study of Homo sapiens with 20 samples.

Results

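OPM2 is a human multiple myeloma line, a cancer of antibody-secreting plasma cells, and panobinostat is a hydroxamic acid inhibitor of histone deacetylases (HDACs). The comparison described here is of OPM2 cells given 10 nM panobinostat for 5 h with OPM2 cells given the vehicle DMSO, over all genes with enough counts to test. It rests on 4 of the 20 libraries of the series, 2 of each group, and they were chosen by the sample names in the count table. The series' design text calls the 2 libraries of each group independent biological replicates. The other groups used are 10 nM panobinostat at 2 h and at 20 h and 10 nM romidepsin, a cyclic depsipeptide HDAC inhibitor, at 5 h, with 2 libraries each. Every group is the same line grown in serum-containing medium, and no group carries an engineered allele. The labels give no harvest time for DMSO, so time in culture and panobinostat cannot be told apart in the contrast with DMSO. They give the batch as unknown.

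HDACs remove acetyl groups from lysines of histones and of other proteins, and acetyltransferases such as EP300 and CREBBP add them. Acetylated histones are a feature of active promoters and enhancers and are bound by bromodomain proteins. Myeloma cells depend on a set of lineage regulators, among them IRF4, PRDM1, XBP1 and the IKZF factors, that keep the plasma cell programme and MYC active. Panobinostat blocks HDACs of several classes and has been used as a myeloma drug together with a proteasome inhibitor.

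RNA was poly(A)-selected and sequenced in pairs from strand-specific libraries. Total counts were 25313510 and 28656570 in DMSO and 17264640 and 23580723 at 5 h of panobinostat, within a range of 17264640 to 29088868 over the series. Levels below are CPM, counts per library size after TMM scaling, which are not corrected for gene length. They are compared within a gene, except in sums over marker lists and rankings by change in CPM, which gene length also affects. Differences are log2 fold changes ± SE from edgeR's quasi-likelihood fit of all 20 libraries, with n = 2 libraries in each group compared. A gene is said to be higher, lower, to have risen, fallen or changed where its p, adjusted by Benjamini-Hochberg over all genes tested, was under 0.05. The plasma cell markers summed to 7601 and 7500 CPM over 12 genes in DMSO, but not all were present. CD27 read 0.212 and 0.0745 CPM there and FCRL5 0.127 and 0.335 CPM. At 5 h the same 12 genes summed to 3191 and 3115 CPM, with 9 lower and 1 higher than in DMSO. FCRL5 read 1.31 and 1.28 CPM at 5 h. In bulk RNA a smaller share of cells with a transcript and less of it in each cell cannot be told apart. Over the lists of other lineages the summed level in DMSO and at 5 h was at most 0.559 and 2.06 CPM for T and NK cells, 0.745 and 4.95 CPM for myeloid cells, 2.27 and 6.04 CPM for earlier B cells, 1.48 and 1.99 CPM for erythroid cells, 5.21 and 6.89 CPM for stroma and 0.508 and 0.66 CPM for epithelium. Of their 62 genes 35 had no count in either DMSO library, among them CD3E of T cells, S100A8 of myeloid cells and HBA1 of red cells. Others had counts, such as HBB of red cells at 0.932 and 0.41 CPM in DMSO. PECAM1, most of the stroma sum in DMSO, read 5.21 and 4.55 CPM there and 1.82 and 1.61 CPM at 5 h. COL1A1 of stroma had no count in DMSO and read 3.99 and 4.99 CPM at 5 h. All 3 tested myeloid markers were higher at 5 h.

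Of 20957 genes tested, 6443 (30.7%) were higher and 5422 (25.9%) lower at 5 h than in DMSO, and 9092 did not pass the test. With a change of at least 2-fold, 3682 genes (17.6%) were higher and 1817 (8.67%) lower, and with at least 8-fold 1207 were higher and 152 lower. The median change over all tested genes was 0.12, or 0.25 when libraries were scaled by their total alone, and its quartiles were -0.467 and 1.017. Among the 5239 genes of the highest quartile of mean level 2599 (49.6%) fell and 1744 (33.3%) rose. Among the 5240 genes of the lowest quartile 164 (3.13%) fell and 1225 (23.4%) rose, and a gene at or near 0 counts in DMSO could pass only by rising. The median change was -0.12 in the highest quartile and 1.04 in the lowest. Of 13609 protein-coding genes 5053 rose and 4524 fell, and of 3352 long non-coding RNA genes 689 rose and 483 fell. The list counts below are to be read beside the shares of 30.7% higher and 25.9% lower over all tested genes.

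**Figure D1:**
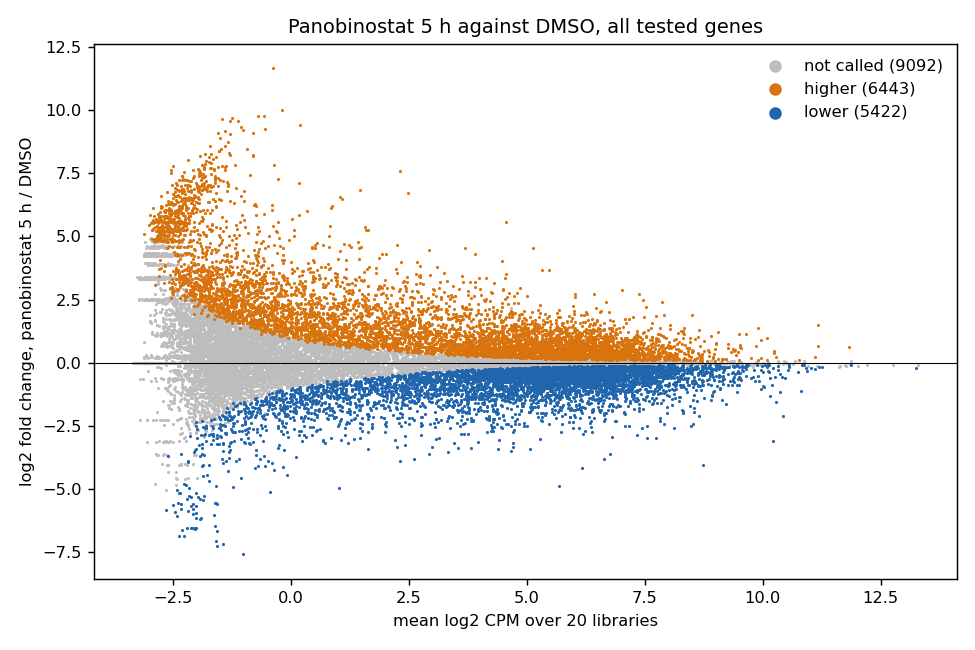
Log2 fold change of panobinostat at 5 h over DMSO (vertical) against mean log2 CPM over the 20 libraries (horizontal) for each of the 20957 tested genes, with the 6443 higher genes in orange, the 5422 lower genes in blue and the rest in grey. The points spread upwards at the left and the blue points gather at the right.

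Several regulators of the plasma cell were among the genes that fell. PRDM1 (BLIMP-1), the repressor that drives plasma cell differentiation (ENSG00000057657, GRCh38 chr6:106086320-106109939), stood at 516 and 514 CPM in the DMSO libraries and 71.4 and 61.5 CPM at 5 h. The 2 groups lay far apart, and the change was -2.96 ± 0.05 (adjusted p = 1.7e-76). XBP1, the transcription factor of the secretory programme, went from 910.2 and 928 CPM to 215 and 207 CPM (-2.12 ± 0.04). IKZF1 and IKZF3, lymphoid zinc finger factors that are degraded by the myeloma drugs of the thalidomide family, changed by -1.91 ± 0.05 and -2.73 ± 0.07. IRF4, the factor on which myeloma cells depend, had 1767 and 1736 CPM in DMSO and 873 and 856 CPM at 5 h. Its change of -1.02 ± 0.03 was smaller than that of PRDM1. Against these, BCL6, a repressor of the germinal centre B cell that represses PRDM1, rose from 2.29 and 2.05 CPM to 21.9 and 26.7 CPM (3.49 ± 0.17), and TCF4, an E protein, from 27.5 and 24.3 CPM to 58.8 and 59.5 CPM. Of the 31 tested members of the list of plasma cell and B cell transcription factors 13 fell and 11 rose, with a median of 0.22. When scaled by library total 13 fell and 13 rose. Over all tested genes 25.9% fell and 30.7% rose, with a median of 0.12.

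MYC, the growth regulator whose gene is a frequent target of rearrangement in myeloma (ENSG00000136997, chr8:127735434-127741434), was read at 448 and 432 CPM in DMSO and 37.4 and 35.3 CPM at 5 h. Its change was -3.60 ± 0.05 (adjusted p = 5.9e-80), the seventh largest fall among protein-coding genes of at least 5 CPM. The partner MAX, with which MYC binds DNA, rose from 88.5 and 86.9 CPM to 173 and 170.1 CPM, and MXD1, which binds MAX in place of MYC, from 11 and 9.88 CPM to 70.8 and 72.1 CPM (2.78 ± 0.09). FUBP1, a protein that binds upstream of MYC, fell (-0.93 ± 0.04). Of 14 tested genes of the MYC and MAX network 6 rose and 5 fell, or 5 and 5 with RLE size factors, beside 30.7% and 25.9% of all tested genes.

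Among surface proteins of myeloma cells 16 of 33 tested members were lower and 7 higher, with a median of -0.13. FGFR3, a receptor tyrosine kinase that the translocation of chromosomes 4 and 14 places under immunoglobulin control (ENSG00000068078, chr4:1793293-1808872), was at 3519 and 3551 CPM in DMSO and 841 and 793 CPM at 5 h (-2.11 ± 0.03, adjusted p = 2.9e-75). NSD2, the histone methyltransferase gene involved in the same translocation (ENSG00000109685, chr4:1871424-1982207), had 2492 and 2519 CPM and 1150 and 1152 CPM. The change of NSD2 was -1.12 ± 0.03. SDC1 (CD138), the proteoglycan used to sort plasma cells, went from 1111 and 1126 CPM to 199.6 and 199 CPM (-2.49 ± 0.04). TNFRSF17 (BCMA), the survival receptor targeted by CAR T cells, went from 301 and 301 CPM to 43.1 and 43.1 CPM (-2.80 ± 0.05). SLAMF7, the target of elotuzumab, went from 367 and 367 CPM to 92.7 and 87 CPM (-2.03 ± 0.06). In all of these the 5 h libraries lay below the DMSO libraries with no overlap, but the share of all tested genes without overlap was not counted. CD38, the target of daratumumab, is the exception: its libraries read 11.7 and 11.2 CPM and 12.1 and 10.2 CPM, which overlap, and its change of -0.04 ± 0.14 did not pass (adjusted p = 0.82). IL6ST, the signalling chain of the IL-6 receptor, rose (0.40 ± 0.05), while IL6R, the binding chain, fell from 71 and 69.6 CPM to 20.5 and 20.9 CPM (-1.76 ± 0.08).

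Among protein-coding genes of at least 5 CPM the 2 largest falls were in a cytokine and a chemokine receptor. OSM, the cytokine oncostatin M, fell from 13.3 and 12.2 CPM to 0.228 and 0.536 CPM (-4.96 ± 0.32). CCR1, a chemokine receptor of myeloma cells, fell from 301 and 287 CPM to 10.7 and 9.65 CPM (-4.86 ± 0.07, adjusted p = 3.6e-81), and its neighbour in the same gene cluster on chromosome 3, CCR2, from 12.8 and 13.1 CPM to 1.14 and 1.36 CPM (-3.35 ± 0.20). CXCR4, the receptor for marrow homing, went from 148 and 149 CPM to 52 and 53.2 CPM (-1.50 ± 0.06). IL15, a cytokine of T and NK cells, rose from 0.72 and 0.894 CPM to 5.53 and 6.06 CPM (2.83 ± 0.27). In this list 11 of 25 tested genes fell and 7 rose, or 9 and 9 when scaled by library total.

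Other large falls were in regulators and enzymes outside the plasma cell lists. ZBTB38, a zinc finger protein that binds methylated DNA (ENSG00000177311, chr3:141324213-141449792), stood at 1574 and 1570 CPM in DMSO and 90.8 and 96.7 CPM at 5 h. The 4 values form 2 tight pairs and the change was -4.06 ± 0.05 (adjusted p = 4.8e-57). MGAT3, which adds the bisecting residue to N-glycans, went from 344 and 348 CPM to 19.5 and 18.9 CPM (-4.18 ± 0.06). PTPN7, a phosphatase of blood cells that acts on MAP kinases, went from 387 and 391 CPM to 24.1 and 31 CPM (-3.80 ± 0.10), with more spread at 5 h than ZBTB38. NRROS (-3.82 ± 0.18), KCTD15 (-3.55 ± 0.13), JADE2 (-3.48 ± 0.10), MKX (-3.41 ± 0.23), RAB36 (-3.40 ± 0.08) and STBD1 (-3.37 ± 0.14) complete the 12 largest falls. In CPM, the largest falls among protein-coding genes, besides FGFR3, ZBTB38 and NSD2, were in EEF1A1, SRRM2 and AHNAK. EEF1A1, the elongation factor of translation, changed by -0.20 ± 0.03, and SRRM2, a scaffold of nuclear speckles, by -1.54 ± 0.04.

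**Figure D2:**
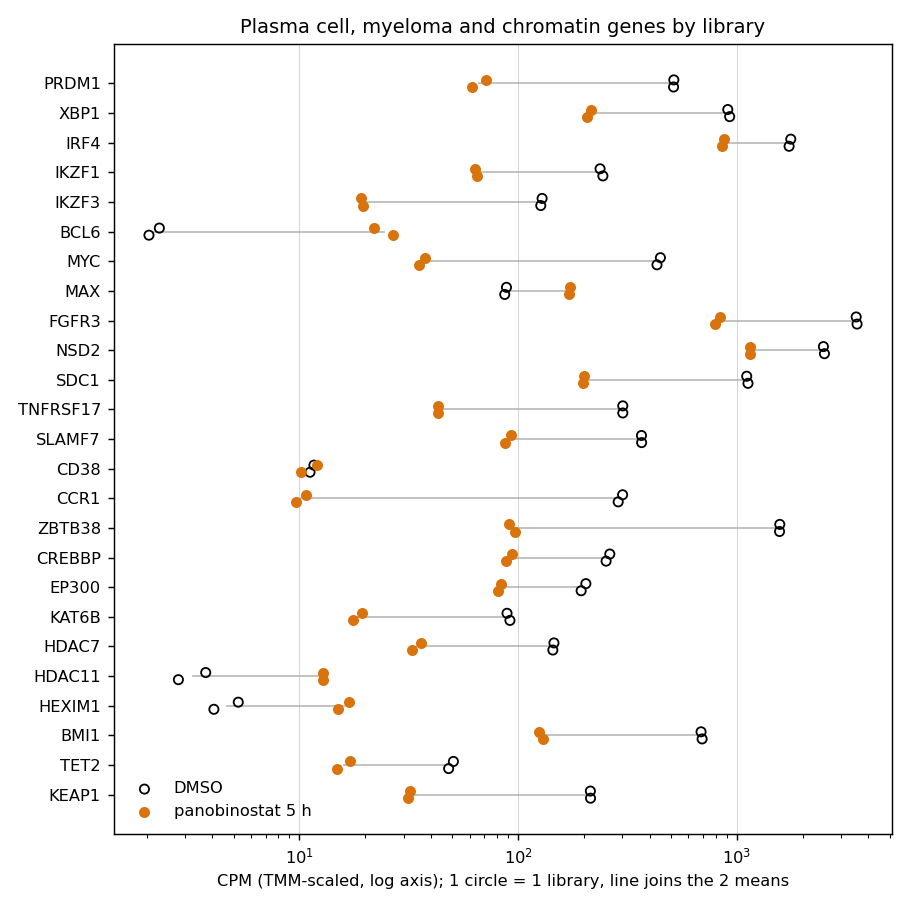
CPM on a log axis for plasma cell, myeloma and chromatin genes in each of the 4 libraries, with DMSO as open circles and panobinostat at 5 h as filled circles. The replicates nearly coincide and CD38 is the gene in which the 2 groups overlap.

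The proteins that write, erase and read acetylation changed unevenly. Of 13 acetyltransferase genes 10 fell and 2 rose, with a median of -1.10. CREBBP was at 263 and 253 CPM in DMSO and 93.7 and 88.5 CPM at 5 h (-1.50 ± 0.05), and its paralog EP300 at 204 and 194 CPM and 83.4 and 81.3 CPM (-1.27 ± 0.05). KAT6B fell most (-2.30 ± 0.08), KAT7 changed by -1.57 ± 0.08 and KAT5 by -1.30 ± 0.13. NCOA3, a nuclear receptor coactivator, rose from 73 and 81.2 CPM to 173 and 175 CPM (1.17 ± 0.05), whereas NCOA2 fell (-1.36 ± 0.06). HAT1, which acetylates new histones, gave 0.11 ± 0.05 and did not pass, though it did when scaled by library total (0.24).

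Among the 18 HDAC and sirtuin genes 7 rose and 7 fell, or 8 and 6 when scaled by library total. The shares over all tested genes were 30.7% and 25.9%. HDAC7, a class IIa enzyme, fell from 146 and 144 CPM to 36.1 and 32.6 CPM (-2.09 ± 0.06). HDAC11 rose from 3.73 and 2.79 CPM to 12.9 and 12.8 CPM (1.98 ± 0.19) and HDAC3, the catalytic subunit of the NCOR complex, from 37.8 and 30.8 CPM to 85.1 and 80.7 CPM (1.28 ± 0.07). HDAC1 and HDAC6, main targets of the drug, moved little, with changes of -0.16 ± 0.04 and -0.34 ± 0.06. SIRT4 (2.87 ± 0.28) and SIRT7 (1.18 ± 0.06), NAD-dependent deacylases, rose. Of 34 corepressor subunits 16 fell and 13 rose: TBL1XR1, a subunit of the NCOR complex, fell from 171 and 185 CPM to 71.9 and 63.2 CPM, and ING1, a subunit of the SIN3 complex, rose from 15.7 and 14.2 CPM to 43.2 and 39.9 CPM.

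The elongation factor P-TEFb is held inactive by HEXIM1 on the 7SK RNA together with LARP7 and MEPCE. HEXIM1 rose from 5.25 and 4.06 CPM to 16.8 and 15.1 CPM (1.78 ± 0.15), while LARP7 (-1.05 ± 0.08) and the capping enzyme MEPCE (-1.96 ± 0.12) fell. CDK7, the kinase of TFIIH, rose (1.10 ± 0.09), and CCNT2, a cyclin of P-TEFb, fell (-1.04 ± 0.08). The list of bromodomain readers and elongation factors had 8 of 25 genes higher and 13 lower. BRD3 read 23.1 and 21.3 CPM and 24.7 and 21.9 CPM and did not pass.

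Polycomb and DNA methylation genes were lower in 16 of 27 and higher in 11. BMI1, a core subunit of Polycomb complex PRC1, fell from 687 and 694 CPM to 124 and 129.8 CPM (-2.44 ± 0.04, adjusted p = 2.1e-73). The TET enzymes, which oxidise methylcytosine, fell together, by -2.43 ± 0.12 for TET1, -1.64 ± 0.09 for TET2 and -2.42 ± 0.09 for TET3. PHF19 (-1.86 ± 0.06) and DNMT3A (-1.37 ± 0.12) were also lower. DNMT3B rose from 19.4 and 18.2 CPM to 40.5 and 40.6 CPM and JARID2, a partner of PRC2, from 41.9 and 43.2 CPM to 107 and 102 CPM. Of 30 listed histone genes 23 were tested, and 11 of these were higher and 4 lower, with a median of 0.66. Poly(A) selection misses most replication-dependent histone mRNAs, and how reads in overlapping genes were counted is not given in the sources used here. H1-10, a replication-independent linker histone, went from 152 and 153 CPM to 578 and 554 CPM (1.89 ± 0.05). H1-2 (1.80 ± 0.10), H3-3B (1.06 ± 0.04) and H2AX (1.04 ± 0.04) were also higher, and CENPA, the centromeric H3, was lower (-0.86 ± 0.09).

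Most genes of mitosis and replication fell. Of 35 mitosis genes 29 fell and 5 rose, with a median of -0.67. PLK1, the polo-like kinase, went from 339 and 340.2 CPM to 117 and 111 CPM (-1.58 ± 0.05), UBE2C, an E2 enzyme of the anaphase-promoting complex, changed by -1.57 ± 0.06, FOXM1 by -1.40 ± 0.05 and CCNA2 by -1.37 ± 0.05. NEK2 (0.90 ± 0.05) and PTTG1 (0.68 ± 0.06) rose. Of 43 replication genes 30 fell and 7 rose, with a median of -0.36: MCM5 went from 502 and 507 CPM to 279 and 267 CPM, and TK1, the thymidine kinase, rose from 235 and 234 CPM to 536 and 524 CPM (1.18 ± 0.04). Of 30 genes of homologous recombination and the Fanconi pathway 15 fell and 11 rose, with NBN at -1.73 ± 0.08 and FANCM at 1.39 ± 0.08.

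Entry into the cycle is set by cyclins, their kinases and CDK inhibitors. CCND2, the D cyclin of this line, fell from 579 and 566 CPM to 118 and 113 CPM (-2.31 ± 0.04), its kinase CDK6 from 513 and 525 CPM to 164 and 162 CPM (-1.67 ± 0.04) and E2F2 from 326 and 332 CPM to 57.8 and 58.8 CPM (-2.50 ± 0.05). E2F7, a repressor of the family, rose (1.72 ± 0.09), and E2F1 gave -0.08 ± 0.06 and did not pass. Of 6 tested CDK inhibitors 4 rose. CDKN1A (p21) rose from 55.6 and 54.1 CPM to 121 and 123 CPM (1.15 ± 0.05), CDKN2B (p15) from 6.82 and 6.19 CPM to 63.8 and 69.9 CPM (3.37 ± 0.10) and CDKN1C (p57) from 0.169 and 0.149 CPM to 5.41 and 4.79 CPM (4.96 ± 0.39). CDKN1B (p27) went the other way, from 224 and 223 CPM to 45.2 and 44.5 CPM (-2.32 ± 0.06, adjusted p = 3.9e-61). In each of these genes the groups did not overlap, which was not counted over all tested genes.

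Cell death genes changed on both sides. Among anti-apoptotic genes 7 of 10 fell and 3 rose, with a median of -0.75. BCL2 went from 95.9 and 101 CPM to 30.9 and 35.4 CPM (-1.56 ± 0.07) and BCL2L1 (BCL-XL) from 24.6 and 29 CPM to 8.66 and 9.49 CPM (-1.56 ± 0.12). XIAP (-1.25 ± 0.06) and CFLAR (-1.23 ± 0.09), inhibitors of caspases, were lower. MCL1, the family member on which most myeloma cells rely, rose from 672 and 665 CPM to 993 and 1001 CPM (0.58 ± 0.04). Among pro-apoptotic members 5 of 14 rose and 3 fell, shares near the 30.7% and 25.9% of all tested genes. BCL2L11 (BIM) rose from 58.1 and 57.4 CPM to 143 and 143 CPM (1.31 ± 0.06), BBC3 (PUMA) from 0.805 and 1.27 CPM to 8.32 and 7.34 CPM (2.89 ± 0.24) and PMAIP1 (NOXA) from 8.13 and 10.2 CPM to 15 and 17.4 CPM (0.82 ± 0.13). BID (-1.04 ± 0.11) and BAK1 (-0.43 ± 0.06) fell, and BAX and BAD did not pass.

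APAF1, the scaffold of the apoptosome (ENSG00000120868, chr12:98645141-98735433), rose from 32.5 and 35.7 CPM to 227 and 225 CPM (2.73 ± 0.06, adjusted p = 1.9e-64). CASP9, the caspase it activates, rose from 13 and 14.1 CPM to 34.6 and 32.5 CPM (1.30 ± 0.10) and DIABLO, which blocks XIAP, from 2.71 and 2.42 CPM to 7.41 and 6.93 CPM. RIPK1, a kinase of death receptor signalling, fell from 30.1 and 31.2 CPM to 4.9 and 3.96 CPM (-2.81 ± 0.14). The TRAIL receptors moved apart: TNFRSF10A was lower (-1.27 ± 0.14) and TNFRSF10B higher (1.36 ± 0.10). Over the whole list of death receptors, ligands and caspases 13 of 21 fell and 6 rose.

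Many chaperones of the heat shock response rose. In the list of HSP70, HSP90, small HSP and co-chaperone genes 23 of 41 were higher and 10 lower, with a median of 0.52. HSPA1B, the inducible HSP70 gene (ENSG00000204388, chr6:31827735-31830255), went from 6.01 and 6.04 CPM to 139 and 145 CPM (4.56 ± 0.09). HSPA1A codes for the same protein and shares reads with HSPA1B, so the division of counts between the 2 is uncertain. HSPA2, a further HSP70, rose from 2.96 and 2.72 CPM to 66.5 and 66.5 CPM (4.55 ± 0.11). HSPA8, the constitutive HSP70 (ENSG00000109971, chr11:123057489-123063230), rose from 1965 and 1986 CPM to 5419 and 5604 CPM (1.48 ± 0.03). This was the largest rise in CPM among protein-coding genes of at least 5 CPM that passed without overlap. DNAJB1, an HSP40 partner, rose from 96.3 and 94 CPM to 496 and 517 CPM (2.41 ± 0.04) and HSP90AA1 from 2474 and 2453 CPM to 3881 and 3941 CPM (0.67 ± 0.03). BAG3 gave 0.09 ± 0.05 and did not pass, though it did when scaled by library total (0.22). PTGES3 (p23), an HSP90 co-chaperone, fell (-0.86 ± 0.04).

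To show what the promoters of these genes hold, the 250 bases before the RefSeq start (GRCh38.p14) were searched on both strands for GAANNTTC, 2 inverted units of the heat shock element bound by HSF1. It was found in 10 of the 37 promoters of the list that the RefSeq table holds, against 5.85% of all 27305 promoters. These were 8 of the 22 whose gene rose and 2 of the other 15. The promoters of HSPA1B (chr6:31827488-31827737, + strand) and HSPA8 (chr11:123062137-123062386, - strand) are given 5′ to 3′ with the matches in capitals.
HSPA1B: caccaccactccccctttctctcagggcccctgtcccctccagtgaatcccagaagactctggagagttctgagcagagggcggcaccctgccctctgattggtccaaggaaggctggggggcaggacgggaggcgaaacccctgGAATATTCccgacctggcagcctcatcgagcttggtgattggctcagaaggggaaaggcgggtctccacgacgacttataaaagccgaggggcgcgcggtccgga
HSPA8: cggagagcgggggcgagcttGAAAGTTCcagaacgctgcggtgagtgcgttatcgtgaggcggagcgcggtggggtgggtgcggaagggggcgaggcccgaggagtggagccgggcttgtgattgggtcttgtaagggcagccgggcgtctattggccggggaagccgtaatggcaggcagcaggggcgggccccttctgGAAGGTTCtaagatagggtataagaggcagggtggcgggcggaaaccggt

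The metallothioneins MT2A and MT1X, small zinc-binding proteins, also rose. MT2A (ENSG00000125148, chr16:56608199-56609497) went from 3.47 and 3.47 CPM to 180.1 and 148 CPM (5.55 ± 0.17, adjusted p = 4.3e-11) and MT1X from 6.56 and 6.45 CPM to 115 and 101 CPM (4.05 ± 0.08). Their reads can be shared with other members of the family, which are near copies. MTF1, the factor that senses zinc, rose from 42.3 and 41.6 CPM to 98.8 and 98.3 CPM (1.23 ± 0.06), while the zinc importers SLC39A10 (-1.27 ± 0.07) and SLC39A7 (-0.74 ± 0.05) fell. Of 26 listed genes of zinc handling 16 were tested, and 9 of these rose and 5 fell. The metallothioneins MT1A, MT1B, MT1E, MT1F, MT1H, MT1L, MT1M and MT3 had too few counts to be tested. The core of the metal response element, TGCACNC or TGCGCNC on either strand, stood in 7 of the 13 promoters of the list at hand, against 24.7% of all promoters. These were 6 of the 8 whose gene rose and 1 of the other 5. It was present 7 times before MT2A (chr16:56608334-56608583, + strand) and 4 times before MT1X (chr16:56682220-56682469, + strand), shown in capitals.
MT2A: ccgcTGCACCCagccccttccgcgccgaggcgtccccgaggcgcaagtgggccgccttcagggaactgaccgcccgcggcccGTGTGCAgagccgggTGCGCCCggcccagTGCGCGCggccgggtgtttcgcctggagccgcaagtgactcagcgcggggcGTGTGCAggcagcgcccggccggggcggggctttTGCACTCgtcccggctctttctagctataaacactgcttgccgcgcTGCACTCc
MT1X: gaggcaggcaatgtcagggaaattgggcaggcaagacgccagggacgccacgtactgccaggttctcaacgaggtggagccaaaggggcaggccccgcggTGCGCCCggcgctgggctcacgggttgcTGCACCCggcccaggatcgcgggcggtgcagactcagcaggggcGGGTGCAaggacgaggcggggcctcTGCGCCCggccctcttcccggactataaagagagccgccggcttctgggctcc

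Lysosome and autophagy genes were higher in 30 of 47 and lower in 10, with a median of 0.30. NEU1, the lysosomal sialidase, rose from 74.2 and 76.9 CPM to 429 and 424 CPM (2.50 ± 0.04, adjusted p = 4.7e-72), MAP1LC3B (LC3B), the autophagosome marker, from 109.8 and 106 CPM to 398 and 367 CPM (1.82 ± 0.05) and ULK1, the initiating kinase, from 47 and 51.3 CPM to 150.4 and 142 CPM (1.57 ± 0.06). MCOLN1, the lysosomal calcium channel, rose from 22.6 and 21.4 CPM to 57.3 and 57.4 CPM (1.39 ± 0.08). SCARB2 (-0.71 ± 0.04) and NAGLU (-0.73 ± 0.10) fell, and CTSD (cathepsin D) did not pass. The palindrome TCACGTGA, the E-box of lysosomal promoters bound by TFEB, was found in 5 of the 33 promoters of the list and in 0.89% of all promoters. It stood in 4 of the 21 whose gene rose and in 1 of the other 12. MCOLN1 (chr19:7522374-7522623, + strand) held it in 2 places.
MCOLN1: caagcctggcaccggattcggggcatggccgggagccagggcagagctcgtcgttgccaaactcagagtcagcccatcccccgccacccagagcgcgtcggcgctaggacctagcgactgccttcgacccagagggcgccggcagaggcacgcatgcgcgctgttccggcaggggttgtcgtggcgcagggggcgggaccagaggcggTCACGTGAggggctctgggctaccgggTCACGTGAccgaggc

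Sterol synthesis genes rose in 23 of 30 and fell in 4, with a median of 0.80. TM7SF2, a sterol reductase, went from 6.06 and 5.63 CPM to 47.8 and 44.8 CPM (2.99 ± 0.11), INSIG1, the sterol-regulated anchor of SCAP, from 199 and 217 CPM to 780.3 and 758 CPM (1.89 ± 0.04, adjusted p = 1.1e-64) and IDI1, an isomerase of the mevalonate pathway, from 86.1 and 86.7 CPM to 257 and 254 CPM (1.56 ± 0.05). SQLE (1.37 ± 0.05), MVK (1.37 ± 0.08) and MVD (1.20 ± 0.06) were higher, and FDPS (-0.48 ± 0.05) and PMVK (-0.55 ± 0.05) lower. The sterol regulatory element TCACNCCAC was found in 1 of the 24 promoters of the list and in 0.875% of all promoters, and in none of the 20 promoters whose gene rose. Of 22 fatty acid genes 6 rose and 8 fell, or 8 and 4 when scaled by library total, with ACSL3 at 1.21 ± 0.05 and FADS1, a desaturase, at -0.96 ± 0.08.

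Interferon-stimulated genes were higher in 21 of 38 and lower in 5, with a median of 1.03. OASL rose from 1.78 and 1.56 CPM to 34.8 and 39.1 CPM (4.47 ± 0.14), IFI27 from 0.805 and 0.857 CPM to 8.71 and 8.17 CPM (3.33 ± 0.27) and STAT2, a subunit of the interferon-activated factor ISGF3, from 55.1 and 55.8 CPM to 138 and 134 CPM (1.29 ± 0.06). SAMD9 rose (1.11 ± 0.06) and its neighbour SAMD9L fell (-0.76 ± 0.08). The core GAAANNGAA of the interferon response element was found in 18 of the 29 promoters of the list and in 7.06% of all promoters. It stood in 13 of the 18 whose gene rose and in 5 of the other 11. IFI27 (chr14:94110486-94110735, + strand) held 2 matches, 1 on each strand.
IFI27: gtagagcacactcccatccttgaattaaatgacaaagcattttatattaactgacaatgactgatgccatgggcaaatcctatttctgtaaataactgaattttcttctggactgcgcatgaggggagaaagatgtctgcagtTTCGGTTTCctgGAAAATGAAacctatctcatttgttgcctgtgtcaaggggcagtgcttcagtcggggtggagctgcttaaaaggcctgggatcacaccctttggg

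Genes of the integrated stress response split into 11 higher and 10 lower of 25, beside 30.7% and 25.9% of all tested genes. ATF3 rose from 10.6 and 9.69 CPM to 30.8 and 28.8 CPM (1.55 ± 0.10), DDIT3 (CHOP) from 6.39 and 6.67 CPM to 22.1 and 20.3 CPM (1.69 ± 0.12) and SESN2, an inhibitor of mTORC1, from 38.4 and 42.1 CPM to 155 and 144 CPM (1.89 ± 0.06). ATF4, the central factor, gave -0.06 ± 0.04 and did not pass, though its call depended on the settings. ATF5 fell from 37.7 and 39.5 CPM to 7.35 and 7.22 CPM (-2.41 ± 0.11). In the antioxidant list 11 of 26 rose and 11 fell, or 13 and 9 when scaled by library total. KEAP1, which targets NRF2 for degradation, fell from 214 and 214 CPM to 32 and 31.5 CPM (-2.76 ± 0.06), and so did GCLM, an NRF2 target (-1.13 ± 0.07). TXNIP, the inhibitor of thioredoxin, rose from 186 and 168 CPM to 396 and 406 CPM (1.18 ± 0.04). For the folding and secretion of antibody, 18 of 36 genes rose and 13 fell: CALR, the ER chaperone calreticulin, rose from 562 and 566 CPM to 1241 and 1234 CPM (1.13 ± 0.04), and TXNDC11 (-1.74 ± 0.04), TXNDC5 (-1.53 ± 0.05) and MZB1 (-1.11 ± 0.06) fell.

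**Figure D3:**
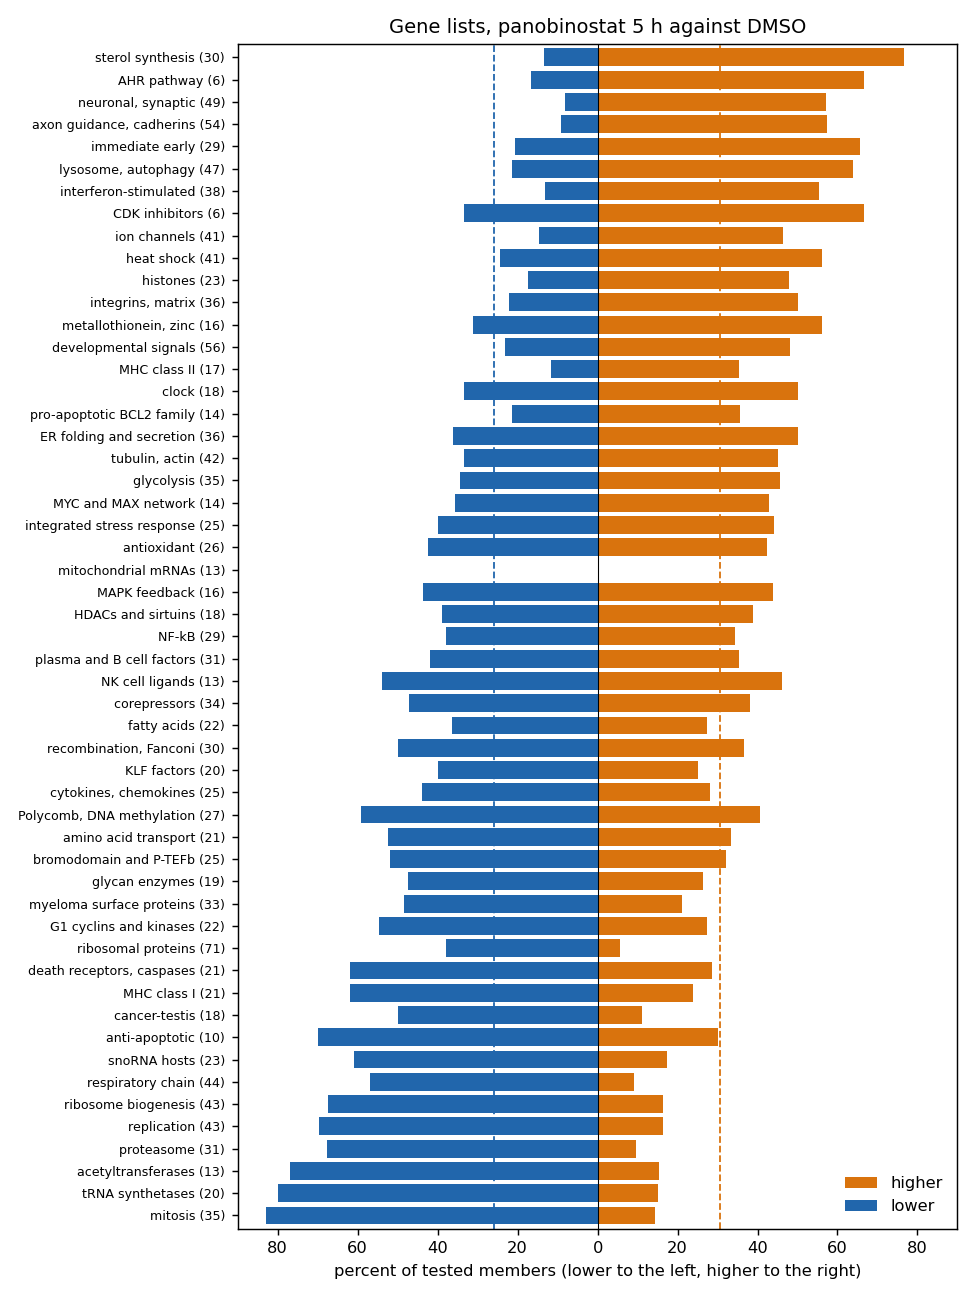
Percent of tested members higher (orange, to the right) and lower (blue, to the left) at 5 h of panobinostat than in DMSO for each gene list, with the number tested beside the name and dashed lines at 30.7% and 25.9%, the shares over all 20957 genes. The bars of mitosis, tRNA synthetases and acetyltransferases reach farthest to the left and those of sterol synthesis and the lysosome far to the right.

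Genes of ribosome assembly and tRNA charging were mostly lower. Of 43 ribosome biogenesis genes 29 were lower and 7 higher, with a median of -0.43. UBTF, which opens ribosomal DNA for RNA polymerase I, fell from 438 and 423 CPM to 60.7 and 57.4 CPM (-2.87 ± 0.06, adjusted p = 2.0e-38) and DKC1, the pseudouridine synthase of the small nucleolar RNPs, from 328 and 323 CPM to 114 and 115 CPM (-1.51 ± 0.05). RRP9 (0.73 ± 0.06) and RRP12 (0.50 ± 0.05) rose. Of 20 cytosolic tRNA synthetases 16 fell and 3 rose, none of them by 2-fold, with YARS1 at -0.96 ± 0.04 and TARS1 at -0.92 ± 0.04. Of 21 amino acid transporters 11 fell and 7 rose: SLC38A1 fell from 879 and 885 CPM to 262 and 254 CPM (-1.77 ± 0.04), and SLC7A1 (-1.96 ± 0.05) and SLC1A5 (-1.03 ± 0.04) fell as well. Ribosomal protein genes changed little and their direction depended on the scaling: 27 of 71 were lower and 4 higher with a median of -0.07, but 4 were lower and 30 higher with a median of 0.07 when libraries were scaled by their total alone, and none changed by 2-fold.

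Proteasome and respiratory genes fell mostly by less than 2-fold. Of 31 constitutive proteasome subunits 21 were lower and 3 higher, with a median of -0.16, or 11 and 7 when scaled by library total. PSMD7 fell from 192 and 188 CPM to 58.2 and 57.5 CPM (-1.72 ± 0.05) and PSMB5, the subunit bound by bortezomib, from 75.2 and 74.3 CPM to 35.8 and 36.9 CPM (-1.04 ± 0.07), while PSMD2 rose (0.60 ± 0.04). Of 44 nuclear genes of oxidative phosphorylation 25 were lower and 4 higher, or 12 and 8 when scaled by library total. Of the 13 mRNAs encoded by mitochondrial DNA none passed in the edgeR fit used here, where 0 had an unadjusted p under 0.05, and 1 passed in DESeq2 and in edgeR with RLE size factors. MT-CO2 read 3400 and 3292 CPM in DMSO and 3114 and 2924 CPM at 5 h (-0.15 ± 0.07), and its call depended on the settings.

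Immediate-early transcription factors rose in 19 of 29 and fell in 6, with a median of 1.06. FOS went from 12.8 and 14.7 CPM to 176 and 179 CPM (3.69 ± 0.16), EGR1 from 0.847 and 0.559 CPM to 14.6 and 10.5 CPM (4.15 ± 0.26), IER3 from 0.296 and 0.335 CPM to 11.3 and 12.9 CPM (5.24 ± 0.25) and ZFP36, which destabilises AU-rich mRNAs, from 44.9 and 44 CPM to 324 and 323 CPM (2.86 ± 0.05). The brakes on MAP kinases were divided, with 7 of 16 higher and 7 lower: DUSP1 rose (1.17 ± 0.10) and DUSP6 (-1.83 ± 0.07), DUSP4 (-1.73 ± 0.06) and SPRY1 (-1.30 ± 0.07) fell. In the KLF family 5 of 20 rose and 8 fell, beside 30.7% and 25.9% of all tested genes. KLF6 changed by -1.71 ± 0.05 and KLF13 by -1.73 ± 0.04. Among clock genes 9 of 18 rose and 6 fell. The repressors PER1 and CRY2 rose from 23.4 and 26.2 CPM to 154 and 148 CPM and from 20.6 and 20.4 CPM to 84.5 and 80.9 CPM. DBP, a clock output gene, rose too (2.85 ± 0.20), and CLOCK (-1.38 ± 0.09) and BHLHE40 (-2.23 ± 0.10) fell.

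In the NF-kB list 10 of 29 rose and 11 fell, or 12 and 10 when scaled by library total. The shares over all tested genes were 30.7% and 25.9%. NFKB1 fell from 69 and 71.3 CPM to 30.9 and 28.8 CPM (-1.24 ± 0.07) and NFKB2, the subunit of the non-canonical pathway, rose from 53.8 and 52 CPM to 169 and 165 CPM (1.66 ± 0.05). BCL3 (-2.22 ± 0.09) and NFKBIA (-1.11 ± 0.12) were lower. Genes of antigen presentation and immune recognition were mixed. Of 21 genes of MHC class I and peptide loading 13 fell and 5 rose, none of the falls reaching 2-fold, with NLRC5 at -0.59 ± 0.06 and PSMB9 at 0.74 ± 0.09. In the list of MHC class II 6 of 17 tested members were higher and 2 lower, with CIITA, the transactivator, going from 12.3 and 11.6 CPM to 28.1 and 33.2 CPM (1.37 ± 0.11). Of 13 tested ligands of NK cell receptors 6 rose and 7 fell, or 6 and 6 when scaled by library total. MICA (2.70 ± 0.24) and NECTIN2 (2.13 ± 0.15) were among the rises. CD48 (-1.31 ± 0.05), CD58 (-2.51 ± 0.22), CLEC2B (-2.56 ± 0.11) and PVR (-1.09 ± 0.06) were among the falls.

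The largest rises were in genes that DMSO libraries hardly contained. SYT11, a synaptotagmin of vesicle traffic (ENSG00000132718, chr1:155859509-155885199), read 0.508 and 0.224 CPM in DMSO and 69 and 69.3 CPM at 5 h. The 2 groups lay far apart, and the change was 7.58 ± 0.14 (adjusted p = 7.2e-72). MAP1A, a microtubule protein of neurons, went from 0.339 and 0.224 CPM to 33.7 and 30.8 CPM (6.83 ± 0.20), DHRS2, a short-chain dehydrogenase, from 0.847 and 0.335 CPM to 53.9 and 67.5 CPM (6.72 ± 0.27) and TUBB3, the neuronal beta tubulin, from 0.0847 and 0.224 CPM to 15.6 and 15.6 CPM (6.57 ± 0.25). SLC2A4 (GLUT4), the insulin-responsive glucose transporter of muscle and fat, went from 0.339 and 0.149 CPM to 22.4 and 21.7 CPM (6.50 ± 0.29). TMEM169 (6.19 ± 0.38) and BAIAP3 (6.12 ± 0.24), which acts in dense-core vesicle traffic, rose over a similar range. For 4 of the 12 largest rises the DMSO libraries together held 1 to 3 counts, and the ratio of counts with its 95% counting interval is given instead. It was 379 (67.5 to 15000) for ANKRD35, 192 (52.7 to 1590) for EPPK1, 177 (48.7 to 1470) for HID1 and 160 (43.8 to 1330) for HPCAL4.

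Of the tested genes 1137 had no count in either DMSO library, and 559 of these were higher at 5 h. Such a gene passed the filter on low counts only through other groups and could not be lower. The direction of these calls was therefore set by the selection. Against a floor of 3 counts over the 2 DMSO libraries SEMA6B, a semaphorin at 5.13 and 5.53 CPM at 5 h, was at least 90.1-fold higher. COL1A1, a collagen chain, at 3.99 and 4.99 CPM was at least 76.8-fold higher, NCKAP5L at 4.9 and 4.08 CPM at least 74.4-fold and RFPL4A at 2.73 and 3.84 CPM at least 56.7-fold. TMEM52 and KCNJ2, an inward rectifier potassium channel, were at least 52.7-fold and 47.5-fold higher. Intervals and floors cover counting error only.

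Genes typical of the nervous system and of solid tissues were among those that rose, and so were many other genes of low level. Of protein-coding genes in the second quartile of mean level 45.8% rose and 9.78% fell, and in the lowest quartile 33.8% and 1.32%. The lists below were not matched for level. Of 49 tested neuronal and synaptic genes 28 rose and 4 fell, with a median of 1.70, and 21 listed genes had too few counts to be tested. RAB3A, a GTPase of synaptic vesicles, went from 2.54 and 2.27 CPM to 21.3 and 16.7 CPM (2.97 ± 0.16), STX1A, a SNARE, from 4.07 and 3.21 CPM to 17.1 and 17.3 CPM (2.25 ± 0.16) and GRIN2D, a glutamate receptor subunit, from 1.02 and 1.08 CPM to 5.07 and 5.12 CPM (2.27 ± 0.28). REST, the repressor of neuronal genes, moved little (-0.18 ± 0.06). Axon guidance and cadherin genes were higher in 31 of 54 and lower in 5: SEMA6C went from 1.74 and 1.49 CPM to 22.9 and 28 CPM (3.99 ± 0.15) and SEMA3F from 0.127 and 0.149 CPM to 6.27 and 4.46 CPM (5.20 ± 0.45), while PLXNC1, a semaphorin receptor, fell (-1.10 ± 0.06). A member passed the filter on low counts in some cases only through the groups in which it was high, so these counts describe the tested members and not the families.

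Ion channels were higher in 19 of 41 and lower in 6. The shares were 30.7% and 25.9% over all tested genes, and 45.8% and 9.78% over protein-coding genes in the second quartile of mean level. Both pairs of shares are also to be set beside the integrin and developmental lists below. HCN3 rose from 3.98 and 5.14 CPM to 31.9 and 36.7 CPM (2.90 ± 0.12) and SCN4A from 1.02 and 1.3 CPM to 9.23 and 11.4 CPM (3.14 ± 0.23), and KCNA3, the potassium channel of lymphocytes, fell from 29.9 and 28.4 CPM to 9.74 and 8.95 CPM (-1.64 ± 0.11). Tubulin and actin genes were higher in 19 of 42 and lower in 14, with MAP2 at 3.53 ± 0.15, GSN (gelsolin) at 3.46 ± 0.16, TUBB4A at 4.77 ± 0.27 and the main beta tubulin TUBB at -0.90 ± 0.04. ACTG1, LMNA and FLNA, of the cytoskeleton and the nuclear lamina, were among the largest rises in CPM of protein-coding genes. LMNA went from 615 and 596 CPM to 1576 and 1566 CPM (1.38 ± 0.04) and FLNA from 725 and 743 CPM to 1446 and 1421 CPM (0.97 ± 0.04). In the list of integrins and matrix 18 of 36 rose and 8 fell, the falls being led by SELPLG, the selectin ligand of blood cells (-2.58 ± 0.06), and ITGA4, the integrin that holds myeloma cells in the marrow (-1.73 ± 0.05). Developmental signalling genes were higher in 27 of 56 and lower in 13: GLI1, a Hedgehog effector, rose from 0.169 and 0.0373 CPM to 6.95 and 5.12 CPM (5.84 ± 0.47), FZD4, a Wnt receptor, from 2.67 and 2.35 CPM to 14 and 15.5 CPM (2.56 ± 0.18), and SMAD1, a BMP effector, fell from 46.8 and 45.4 CPM to 12.9 and 11.9 CPM (-1.90 ± 0.09).

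Metabolic and glycan genes added to both sides. HK1 (hexokinase 1) rose from 2.63 and 1.79 CPM to 31.4 and 28.6 CPM (3.77 ± 0.14) while HK2 fell from 232 and 232 CPM to 161 and 141 CPM (-0.62 ± 0.05). PFKFB4 (3.41 ± 0.17) and ALDOC (1.66 ± 0.07) rose and PFKP fell (-0.65 ± 0.04). LDHA (-0.06 ± 0.04) did not pass, though its call depended on the settings. Over all genes of glucose transport and glycolysis 16 of 35 rose and 12 fell, or 18 and 7 when scaled by library total. Besides MGAT3, the sialyltransferases ST3GAL1 (-1.50 ± 0.05), ST3GAL4 (-1.28 ± 0.07) and ST3GAL6 (-1.78 ± 0.13) fell and MGAT4A rose (2.31 ± 0.15). In the list of glycan enzymes 5 of 19 rose and 9 fell, or 9 and 7 when scaled by library total. Among long non-coding RNAs of at least 5 CPM the largest rises were BAIAP2-DT (5.24 ± 0.36), LINC02972 (3.03 ± 0.24), GHET1 (2.74 ± 0.24) and ZC3H12A-DT (2.73 ± 0.28). The largest falls were CERNA2 (-3.40 ± 0.10), LINC00484 (-3.32 ± 0.16), FBXL19-AS1 (-2.98 ± 0.31) and MAP3K4-AS1 (-2.75 ± 0.27), and counts of antisense RNAs depend on a strand setting that is not given in the sources used here. Host genes of small nucleolar RNAs were lower in 14 of 23 and higher in 4, SNHG5 rising from 4.4 and 3.28 CPM to 22.6 and 24.8 CPM (2.63 ± 0.15).

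Panobinostat at 5 h was also compared directly with panobinostat at 2 h and 20 h, without DMSO. From 2 h to 5 h 4147 genes (19.8%) rose and 4643 (22.2%) fell. With scaling by library total alone 5409 rose and 3221 fell. From 5 h to 20 h 5754 genes (27.5%) rose and 6049 (28.9%) fell, or 7280 and 4724 with library total alone. Both contrasts use the same 5 h libraries.

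The inducible HSP70 gene had already turned at 5 h. HSPA1B read 194 and 196 CPM at 2 h, 139 and 145 CPM at 5 h and 38.5 and 41.6 CPM at 20 h, lower at each later time (-0.46 ± 0.06 and -1.82 ± 0.07). HSPA8 was still a little higher at 5 h than at 2 h (0.16 ± 0.03) and read 876 and 911 CPM at 20 h (-2.62 ± 0.03). DNAJB1 kept rising (0.56 ± 0.04 and 0.80 ± 0.04), to 871 and 889 CPM at 20 h. MYC had made most of its fall by 2 h, with 61.6 and 57.7 CPM there and 37.4 and 35.3 CPM at 5 h (-0.72 ± 0.06), and so had CCR1 (23.6 and 25 CPM at 2 h) and ZBTB38 (246 and 275 CPM at 2 h). PTPN7 read 190.1 and 181 CPM at 2 h and 24.1 and 31 CPM at 5 h (-2.73 ± 0.10), the steepest fall from 2 h to 5 h among the genes named. SDC1 fell at each step, from 545 and 549 CPM at 2 h to 199.6 and 199 CPM at 5 h and 18 and 17.6 CPM at 20 h. SYT11, DHRS2 and EPPK1 were still rising: SYT11 read 4.95 and 6.71 CPM at 2 h and 464 and 472 CPM at 20 h, and DHRS2 1.98 and 2.72 CPM and 1108 and 1138 CPM. SEMA6B (5.33 ± 0.43), EPPK1 (6.42 ± 0.35), CDH15, a muscle cadherin (4.41 ± 0.30), SEMA3F (4.13 ± 0.40) and ABCA2 (3.95 ± 0.34) were, with DHRS2 (4.68 ± 0.21), the largest rises from 2 h to 5 h among protein-coding genes of at least 5 CPM. Counts at 2 h were low, and 4 of these values moved by over 1.5 times in fold when 1 of the 2 h libraries was left out. Without the first and without the second of them ABCA2 gave 3.5 and 4.77, SEMA3F 5.05 and 3.47, SEMA6B 10.02 and 4.21 and EPPK1 5.59 and 10.51. WDR72 (-2.23 ± 0.07), PHACTR2 (-2.11 ± 0.27), AFAP1L2 (-2.07 ± 0.17) and MORC1 (-1.96 ± 0.16) were among the largest falls after PTPN7.

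Some genes had their extreme at 5 h. Over all tested genes 742 were higher at 5 h than at both 2 h and 20 h and 665 lower than at both, in contrasts that share the 5 h libraries. SMAD3, a TGF-beta effector, read 4.81 and 4.56 CPM at 2 h, 13.6 and 14.4 CPM at 5 h and 4.85 and 5.02 CPM at 20 h. EFCAB12, FAM167A, ANKRD34C, C4orf50 and RASGRP3 had peaks of the same kind, with rises from 2 h of 1.55 ± 0.17, 1.33 ± 0.16, 1.49 ± 0.23, 1.30 ± 0.17 and 1.33 ± 0.23. ARMC5 had its lowest level at 5 h, with 18.6 and 19.4 CPM at 2 h, 7.29 and 7.42 CPM at 5 h and 22.9 and 22.3 CPM at 20 h, and AP5S1, PRDM10, ZFAT, RABEP2 and COQ7 followed it. EP300 was also lower at 5 h than at 20 h, when it read 174 and 166 CPM (1.04 ± 0.05), and CREBBP was not (-0.05 ± 0.05, adjusted p = 0.47), though its difference of 0.13 passed when scaled by library total. SRRM2 rose again by 20 h (0.92 ± 0.04). The largest falls still to come by 20 h were TASL (-6.43 ± 0.31), POU2AF1, a B cell coactivator (-6.36 ± 0.08), CTHRC1 (-5.89 ± 0.12), MZB1 (-5.81 ± 0.12), NPAS3 (-5.48 ± 0.26) and TNFRSF17 (-5.37 ± 0.11). POU2AF1 was at 384 and 368 CPM in DMSO, 204 and 188 CPM at 5 h and 2.54 and 2.25 CPM at 20 h. The largest rises still to come were CYP4F2, XIRP1, TENM1, NRXN2, NLRP2 and INPP5A, none of which reached 1 CPM in a 5 h library, TENM1 going from 0.171 and 0.536 CPM to 51.9 and 55 CPM.

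**Figure D4:**
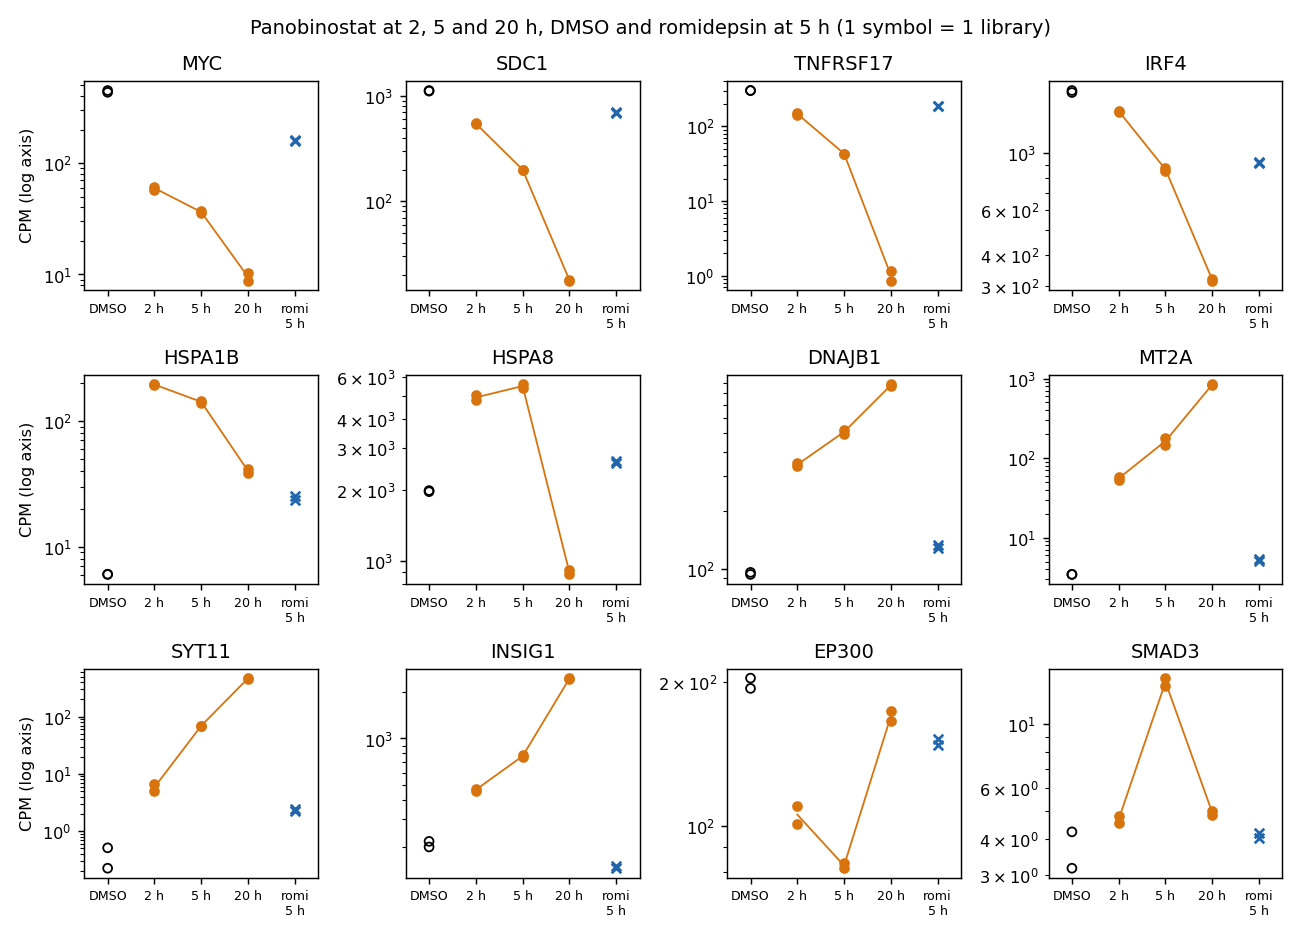
CPM on a log axis for 12 genes in DMSO (no time given, drawn at the left), at 2, 5 and 20 h of panobinostat (filled circles, lines through the means) and at 5 h of romidepsin (crosses), each symbol being 1 library. HSPA1B and HSPA8 turn downwards after 2 h or 5 h, SYT11 and MT2A rise throughout, and MYC and SDC1 fall throughout.

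Panobinostat and romidepsin were compared at the same labelled dose, 10 nM, and time, 5 h, in a direct contrast. They differ in structure as a hydroxamic acid and a cyclic depsipeptide. RNA counts do not measure HDAC inhibition, so the kind of drug and the strength of inhibition cannot be told apart here. At this dose and time 5431 genes (25.9%) were higher and 5188 (24.8%) lower with panobinostat, and 10338 did not pass. MYC, PRDM1 and SDC1 had levels with romidepsin between those of DMSO and panobinostat. MYC read 160.5 and 159 CPM with romidepsin (-2.14 ± 0.05 for panobinostat minus romidepsin), PRDM1 377 and 358 CPM (-2.47 ± 0.05) and SDC1 693 and 702 CPM (-1.81 ± 0.04). IRF4 lay close to its panobinostat level: it read 925 and 920.1 CPM with romidepsin, and the difference of -0.09 ± 0.03 passed (adjusted p = 0.018) but did not with other size factors, without the filter on low counts or without either romidepsin library or the panobinostat library 2. MT2A read 5.36 and 5.05 CPM with romidepsin beside 3.47 and 3.47 CPM in DMSO, SLC2A4 0.118 and 0.788 CPM beside 0.339 and 0.149 CPM and INSIG1 151 and 145 CPM beside 199 and 217 CPM. Panobinostat exceeded romidepsin by 4.97 ± 0.16, 5.67 ± 0.27 and 2.38 ± 0.04 in these genes. The largest excesses with panobinostat besides SLC2A4 were EPPK1, which had no count with romidepsin, ANKRD35, which had 2 counts there, BAIAP3 (6.54 ± 0.25), MAP1A (6.22 ± 0.19) and DHRS2 (6.16 ± 0.26). The largest deficits were CCR2 (-4.24 ± 0.19), CCR1 (-3.45 ± 0.07), ZBTB38 (-3.37 ± 0.05), PCED1B (-3.19 ± 0.26), THEMIS (-3.02 ± 0.24) and STBD1 (-2.98 ± 0.14).

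Some genes lay outside the interval between DMSO and panobinostat with romidepsin. CCR2 read 12.8 and 13.1 CPM in DMSO, 1.14 and 1.36 CPM with panobinostat and 24.6 and 23.3 CPM with romidepsin. PCED1B read 3.52 and 3.84 CPM, 0.911 and 1.32 CPM and 11.3 and 9.6 CPM in the same order, and THEMIS, a T cell signalling protein, 7.07 and 8.27 CPM, 1.37 and 1.44 CPM and 12.3 and 10.6 CPM. In these 3 genes both romidepsin libraries lay above both DMSO libraries and both panobinostat libraries below them. PCDH18, a protocadherin, was higher with romidepsin (12.6 and 14.1 CPM) than with panobinostat (6.55 and 5.45 CPM), a difference of -1.16 ± 0.19, and both lay above DMSO (0.762 and 0.745 CPM). CIITA and AHR, a ligand-activated transcription factor, did not pass between the 2 drugs. The difference was 0.05 ± 0.10 for CIITA (95% interval -0.17 to 0.27) and 0.15 ± 0.08 for AHR (95% interval -0.03 to 0.32), with intervals from the SE and 10 residual degrees of freedom. Of the 41 heat shock genes 24 were higher and 2 lower with panobinostat than with romidepsin, of 30 sterol genes 22 and 4, of 35 mitosis genes 4 and 30 and of 13 acetyltransferases 3 and 10, beside 25.9% and 24.8% of all tested genes. Of 38 interferon-stimulated genes 11 were higher and 8 lower.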

How the data were processed

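Poly(A) RNA of OPM2 cells was sequenced in 20 libraries, 2 for each of 10 groups, of which 5 groups are described here. The deposited table holds the authors' raw counts per gene. The submitters' processing notes name the build GRCh38 and the tools featureCounts, HISAT2 and SAMtools. Not given in the sources used here are their versions, the annotation release, the strand setting and the treatment of reads in overlapping genes. Genes were kept by edgeR's filterByExpr with a minimum count of 10, scaled by TMM and tested with edgeR 4.0.16 in R 4.3.3 (glmQLFit, robust, and glmQLFTest), with 1 term for each group over all 20 libraries and Benjamini-Hochberg adjustment. DESeq2 1.42.0 served as an alternative. The fit was tested on simulated data. The SE is the log2 fold change divided by the root of F. Total counts per library ran from 17264640 to 29088868. Counts of the 2 libraries of a group differed by 2.6 times the sampling variance in DMSO, 2.64 times at 5 h and 6.48 times at 2 h, the highest of all groups, so no library was taken for a copy of another. The labels name no culture or passage for a replicate, and p-values measure the spread between these libraries.

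The members and lists were chosen with earlier results of these data known. Named genes are the largest changes of each contrast among genes of at least 5 CPM that passed without overlap, the largest among long non-coding RNAs, the genes at 0 counts in DMSO with the highest level at 5 h, the clearest peaks and troughs at 5 h, up to 6 leading members of each list, up to 2 against its majority and up to 2 that did not pass, and a panel of known targets. Gene positions and classes are from GENCODE 29 and promoter sequences from RefSeq (GRCh38.p14). Same-numbered libraries deviated together little or not at all, with a correlation of 0.0191 between panobinostat at 5 h and DMSO. The highest of the 45 pairs of groups was 0.0961, between panobinostat and romidepsin at 5 h. Ricolinostat was left out of the comparisons because its labels give 2 different doses. Alternatives were other size factors, library totals, no filter, DESeq2, only the groups compared, a replicate block and leaving out each library.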

Additional observations from a re-analysis of the deposited data

Results flagged for a closer look

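The 3 contrasts that do not use DMSO tested whether 2 drug conditions differed from each other, and each gave many genes. Panobinostat at 5 h was higher than romidepsin at 5 h in 5431 genes and lower in 5188. It was higher than panobinostat at 2 h in 4147 genes and lower in 4643. Panobinostat at 20 h was higher than at 5 h in 5754 genes and lower in 6049. CCR2, PCED1B and THEMIS had romidepsin levels above DMSO and panobinostat levels below it, a pattern noticed after the values were seen.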

How the results depend on the processing

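The counts of higher and lower genes in the 4 contrasts stayed within 1.5 times of those reported under all alternatives run. Against DMSO the range over the alternatives was 5263 to 7495 higher and 4453 to 5745 lower. Leaving out each library of the 2 groups gave 5263 to 5692 higher and 5030 to 5177 lower, the lone library being assumed to vary like the other groups. Replicate numbers did not pair the libraries, and the replicate block gave 6369 and 5399 against DMSO, 4074 and 4630 against 2 h, 5654 and 6026 from 5 h to 20 h and 5394 and 5133 against romidepsin.

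Of 285 named values 13 changed call or sign in at least 1 alternative, and the 10 changes of sign were all in values that had not passed. Scaled by library total, ATF4 gave 0.07, CD38 0.09, E2F1 0.05, LDHA 0.07 and CREBBP, from 5 h to 20 h, 0.13. CREBBP gave 0.01 with RLE size factors and 0.01 with DESeq2. BAG3 (0.22) and HAT1 (0.24) had not passed and did so with library totals (edgeR adjusted p = 7.6e-05 and 5.4e-05). ATF4 (-0.09) and LDHA (-0.1) did so with only the 2 groups compared (edgeR adjusted p = 0.0022 and 0.00062). Without panobinostat 5 h replicate 1 E2F1 gave -0.19 and LDHA -0.14. Leaving out 1 library moved CD38 between -0.19 and 0.05, and CIITA against romidepsin between -0.1 (without panobinostat replicate 2) and 0.15, with -0.01 without romidepsin replicate 2. HDAC1, REST and ARNT lost their call with library totals (edgeR adjusted p = 0.63, 0.47 and 0.78), and HDAC1 and REST also without a 5 h replicate. MT-CO2 passed in 6 alternatives. Among called values, leaving out 1 DMSO library moved DHRS2 to 6.13 or 7.46, GLI1 to 5.07 or 7.11, TMEM169 to 5.49 or 7.76, SLC2A4 to 7.13, SYT11 to 8.21 and TUBB3 to 7.41, and OSM gave -5.81 without panobinostat replicate 2. Against romidepsin SLC2A4 gave 4.79 or 7.48 without a romidepsin library and MAP1A 6.82 without replicate 1, and NPAS3 from 5 h to 20 h gave -6.17 without the 20 h replicate 2. All of these kept their call.

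Of 1060 list counts over the alternatives 52 moved by over 1.5 times, 6 of them from a count of at least 10. With library totals the lower members went from 27 to 4 for ribosomal proteins, 25 to 12 for the respiratory chain, 21 to 11 for the proteasome and 12 to 7 for glycolysis. With only the 2 groups compared 46 ribosomal protein genes were lower, and without DMSO replicate 1 higher recombination genes went from 11 to 7. Depth limits genes near 0 counts, where only rises could pass.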

Other observations

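Cancer-testis antigens, germline genes that myeloma cells express, were lower in 9 of 18 tested members and higher in 2. MAGEC1 went from 201 and 192 CPM in DMSO to 107 and 102 CPM at 5 h (-0.91 ± 0.05). MAGEA3 and MAGEA6, near-identical copies that can share reads, changed by -0.39 ± 0.05 and -0.34 ± 0.05. TEX14, a germ cell protein, rose from 2.58 and 2.24 CPM to 8.03 and 8.41 CPM (1.77 ± 0.22). In the pathway of the aryl hydrocarbon receptor 4 of 6 tested genes rose: AHR went from 23.2 and 25.3 CPM to 39 and 42.3 CPM and its target CYP1A1 from 1.48 and 1.9 CPM to 5.92 and 5.86 CPM (1.79 ± 0.20), while the partner ARNT fell (-0.15 ± 0.04), a call lost when scaled by library total (-0.02).

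Of 1134 tested pseudogenes 103 (9.08%) were higher and 115 (10.1%) lower, with a median of 0. Of 2495 genes that GENCODE 29 does not list 523 were higher and 269 lower. ALDOA (aldolase A) and FTH1 (ferritin heavy chain), abundant in most cells, had low counts in this table: ALDOA read 42.6 and 40.3 CPM in DMSO and 104 and 98.3 CPM at 5 h, and FTH1 0.847 and 1.3 CPM and 2.73 and 2.23 CPM. FTH1 was chosen after its values were seen, and how reads in overlapping genes or copies were counted is not given in the sources used here.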
